A study of Mus musculus with 32 samples.

Results

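Long-chain fatty acids reach the hepatocyte from the blood, cross its membrane, are carried through the cytosol and are joined to coenzyme A before they can be oxidised or esterified. The 9 genes described here encode proteins of these steps, chosen by name and measured in mouse liver: Cd36, Slc27a2 and Slc27a4 for uptake, Fabp1 and Fabp2 for binding in the cytosol, and Acsl1, Acsl3, Acsl4 and Acsl5 for activation. They are 9 of the 20076 genes in the deposited table, and all 9 were among the 11566 genes with enough reads to be tested.

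Uptake proteins of the Slc27 family and the receptor CD36 bring fatty acids into the cell, and several Slc27 proteins also form acyl-CoA themselves. The long-chain acyl-CoA synthetases (Acsl) trap the fatty acid as acyl-CoA, and the isoforms differ in their place in the cell and in the fatty acids they prefer. In the fasting liver, fatty acids released by adipose tissue are the main fuel, and the nuclear receptor PPAR-alpha is known to switch on many genes for their handling.

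The mice were male C57BL/6J, either MCAD-KO, which lack medium-chain acyl-CoA dehydrogenase (gene Acadm) in all tissues, or WT littermates, below KO and WT. All mice received a semisynthetic diet for 6 weeks, low-fat (LF) or high-fat with palm oil (HF), and were killed fed or after 16 h of fasting. The 8 groups held 4 mice each, with labelled ages from 7.5 to 16 and no unit given. Expression was read from bulk liver RNA by 3′ sequencing, in which each transcript gives reads near its end, so that levels as CPM (read counts per 1000000 of the library size, scaled between mice by TMM) are compared between mice and not between genes.

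Mice were left out in 2 groups, replicate 4 of the KO HF fasted group and replicate 2 of the WT LF fed group, which leaves 30 mice and 3 in each of those groups. The first of these libraries had 43690 CPM of 12 heart muscle markers and 1102 CPM of 10 hepatocyte markers, against at most 376.6 and at least 52410 CPM in the 30 mice used. The second had 1177 CPM of 7 stellate cell markers, against 371.5 to 612.3 CPM, and 44510 CPM of the hepatocyte markers, also below all mice used. Among the mice used, acinar pancreas markers reached 17880 CPM in replicate 2 of WT HF fasted and 2618 CPM in replicate 1 of KO HF fed, and adrenal cortex markers reached 288.5 and 124 CPM in replicates 3 and 4 of KO LF fasted. Total counts ranged from 2031053 to 4292200 per mouse. Acadm was at 190 to 748 CPM in WT and at 8.98 to 37.1 CPM in KO. Fasting moved 9 of 10 genes listed as a check of the fasting state, 4 upward, such as Cpt1a (1.40 on the log2 scale, adjusted p = 3.13e-11), and 5 downward, such as Fasn (-3.28, adjusted p = 4.22e-08).

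Genome positions are those of GENCODE vM21 on GRCm38. Cd36 (ENSMUSG00000002944) lies at chr5:17781690-17888801 on the minus strand, Slc27a2 (ENSMUSG00000027359) at chr2:126552407-126588243 and Slc27a4 (ENSMUSG00000059316) at chr2:29802634-29817522, both on the plus strand. Fabp1 (ENSMUSG00000054422) lies at chr6:71199827-71205023 and Fabp2 (ENSMUSG00000023057) at chr3:122895072-122899506, both on the plus strand. Of the synthetases, Acsl1 (ENSMUSG00000018796) lies at chr8:46471037-46536051, Acsl3 (ENSMUSG00000032883) at chr1:78657825-78707743 and Acsl5 (ENSMUSG00000024981) at chr19:55251938-55297720 on the plus strand. Acsl4 (ENSMUSG00000031278) lies on the minus strand at chrX:142317993-142390535.

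The bases before the RefSeq start sites (GRCm38.p6) were searched on both strands for motifs of factors known to act on these genes. All 9 genes had an entry, and Acsl1 had 2 start sites. The searched letters were AGGTCA, the core site of many nuclear receptors, a direct repeat of that site with any 1 base between its 2 copies and up to 2 mismatches, bound by PPAR-alpha with RXR, TCACNCCAC with up to 1 mismatch, a site of SREBP factors, and CACGTG, a site of several basic helix-loop-helix factors. In the 250 bases before the start, AGGTCA occurred in 14.0%, the repeat in 3.2%, TCACNCCAC in 20.7% and CACGTG in 6.0% of all 32851 promoters of the table. A copy of AGGTCA can lie inside a match to the repeat. The promoters of Cd36, whose transcripts followed the diet, of Acsl1, whose transcripts followed fasting most, and of Fabp1, which carries the closest match to the repeat, are shown with the matches in capitals.
Cd36, chr5:17835897-17836146, minus strand: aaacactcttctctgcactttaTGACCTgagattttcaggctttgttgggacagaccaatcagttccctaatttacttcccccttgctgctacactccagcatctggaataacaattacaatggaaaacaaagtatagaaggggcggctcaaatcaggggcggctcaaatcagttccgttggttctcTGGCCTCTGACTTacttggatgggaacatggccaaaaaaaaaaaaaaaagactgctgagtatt
Fabp1, chr6:71199629-71199826, plus strand: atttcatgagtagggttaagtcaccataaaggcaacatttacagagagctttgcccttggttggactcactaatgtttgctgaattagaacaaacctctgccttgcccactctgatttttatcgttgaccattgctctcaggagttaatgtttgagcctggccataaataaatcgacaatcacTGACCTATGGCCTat
Acsl1, upstream start site, chr8:46470787-46471036, plus strand: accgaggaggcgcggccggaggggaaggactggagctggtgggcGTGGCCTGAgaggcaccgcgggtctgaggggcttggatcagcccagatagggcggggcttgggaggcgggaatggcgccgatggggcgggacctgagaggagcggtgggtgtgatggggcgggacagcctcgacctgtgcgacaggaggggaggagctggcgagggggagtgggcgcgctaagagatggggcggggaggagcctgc
Acsl1, downstream start site, chr8:46490716-46490965, plus strand: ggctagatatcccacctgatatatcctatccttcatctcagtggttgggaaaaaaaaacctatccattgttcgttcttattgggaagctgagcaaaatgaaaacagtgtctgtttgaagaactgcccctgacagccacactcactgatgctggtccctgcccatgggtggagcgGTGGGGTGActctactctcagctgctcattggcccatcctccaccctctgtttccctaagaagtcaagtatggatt

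Cd36 held a match to the repeat with 2 mismatches at 63 bases before its start, and Fabp1 held 1 with 1 mismatch at 67 bases. The last 52 bases searched in Fabp1 lie in its first exon in GENCODE and are not shown, and they hold a second AGGTCA match 9 bases before the start. Cd36 also held AGGTCA 228 bases before its start. In Slc27a2 an AGGTCA match lay 220 bases before the start, in a stretch that GENCODE counts as exon. TCACNCCAC matched without a mismatch in the downstream promoter of Acsl1 and with 1 mismatch in its upstream promoter and in those of Acsl4 and Acsl5. The promoters of Acsl3, Slc27a4 and Fabp2 held none of the 4 motifs, and CACGTG was found before none of the 9 genes. These matches describe letters in a window and were not tested as sites of any factor.

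**Figure D1:**
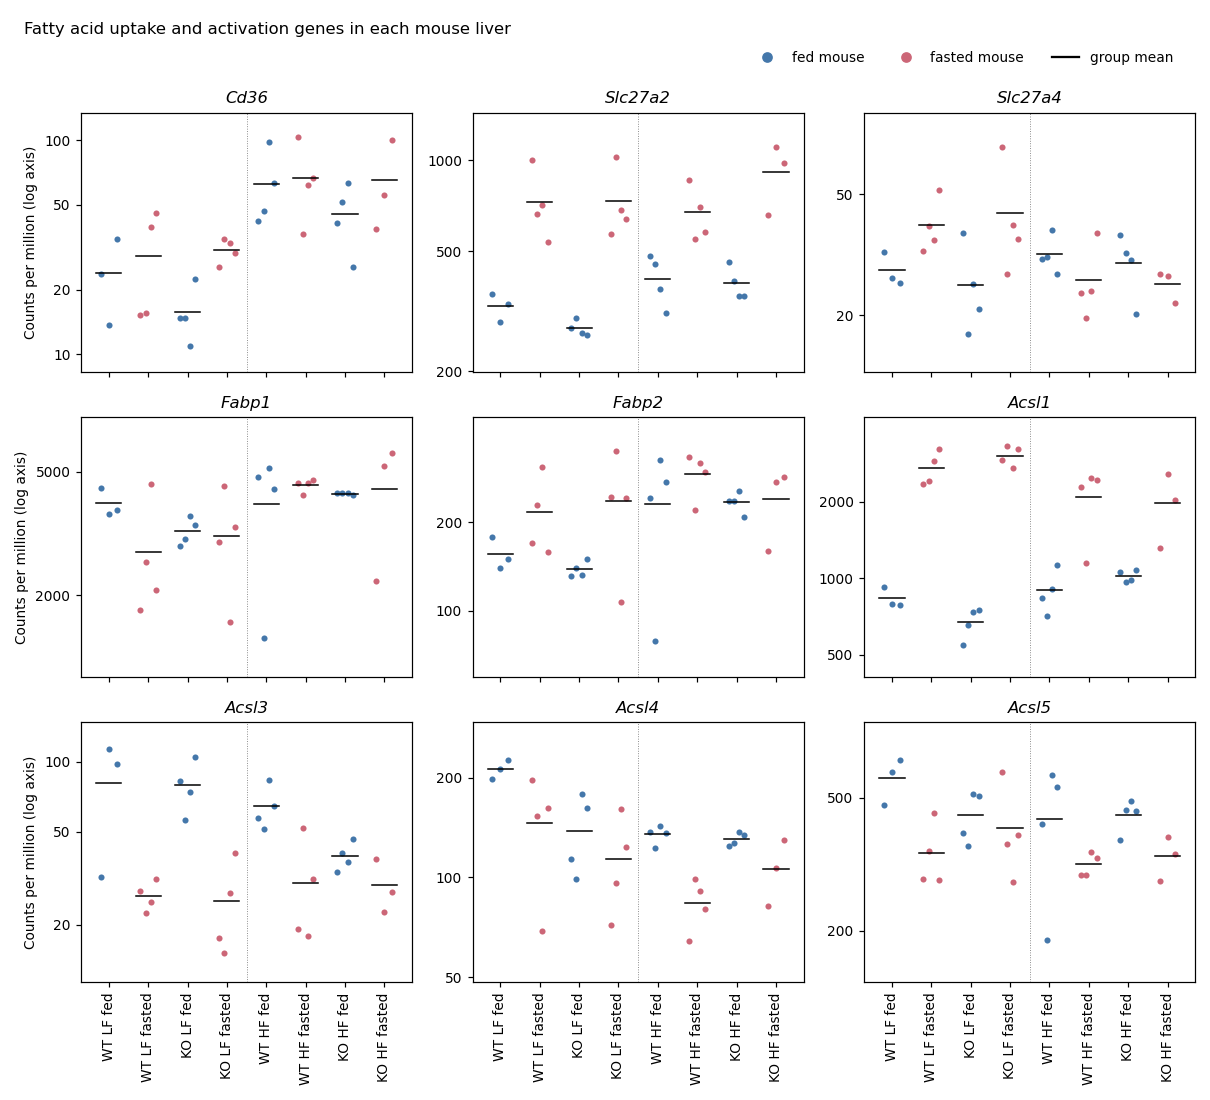
CPM of each of the 9 genes (log axis, 1 panel a gene) in the 8 groups, with 1 point a mouse, blue for fed and red for fasted, and a black line at the group mean. All fasted mice lie above all fed mice for Slc27a2 (536.3 to 1109 against 264.7 to 481.4 CPM) and Acsl1 (1147 to 3311 against 544.6 to 1128 CPM), while Cd36 is higher on HF than on LF.

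The effect of fasting, averaged over both genotypes and both diets, passed the test for 5 of the 9 genes. Slc27a2 and Acsl1 rose, and Acsl3, Acsl4 and Acsl5 fell, so that within the synthetase family 1 isoform went up and 3 went down. Over all genes tested, 18.9% passed this test, 9.77% upward and 9.14% downward. The median change of the 9 genes was 0.188 on the log2 scale, beside -0.00219 over all genes tested. Here and below, adjusted p-values come from the quasi-likelihood test of edgeR, adjusted over all 11566 genes by the Benjamini-Hochberg procedure, and a gene is called at an adjusted p below 0.05. With fasting, 2 of 7 stellate markers fell, Col3a1 (-1.44, adjusted p = 9.63e-08) and Lrat (-0.72, adjusted p = 0.0112), and their sum was 382.6 to 612.3 CPM fed and 371.5 to 517.2 CPM fasted. Of 8 macrophage markers 1 fell, Adgre1 (-0.60, adjusted p = 0.0107), and their sum had a median of 403 CPM fed and 297.5 CPM fasted. The mouse left out with 1177 CPM of stellate markers had 348.2 CPM of Acsl4, above all mice used. The part of these markers in the fall of Acsl3, Acsl4 and Acsl5 was not tested. In bulk liver RNA, fewer cells of a type and less RNA of a gene per cell cannot be told apart.

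Cd36 encodes a membrane receptor that takes up long-chain fatty acids and is also present on macrophages, endothelial cells and adipocytes. On LF it was at 23.79, 13.75 and 34.51 CPM in the WT fed mice and at 15.27, 15.64, 39.25 and 45.56 CPM in the WT fasted mice. The KO mice on LF had 14.74, 14.75, 10.99 and 22.53 CPM fed and 25.59, 34.51, 33.23 and 29.72 CPM fasted. On HF the values were 41.99, 46.85, 98.32 and 62.94 CPM in WT fed mice and 103.5, 36.49, 61.45 and 66.27 CPM in WT fasted mice. The KO mice on HF had 40.87, 51.51, 62.78 and 25.65 CPM fed and 38.33, 55.49 and 100.7 CPM fasted. All 4 HF groups had higher means than all 4 LF groups, from 45.2 to 66.93 against 15.75 to 30.76 CPM.

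The diet effect on Cd36 was 1.29 ± 0.21 on the log2 scale (standard error), or 2.45-fold higher on HF (adjusted p = 5.47e-04). At matched genotype and feeding state the HF and LF mice did not overlap in WT fed, KO fed and KO fasted mice, and overlapped in WT fasted mice. How many of all genes separate like this between groups of 3 or 4 mice was not counted, here or below. Within single groups of genotype and feeding state the differences were 1.38 in WT fed, 1.2 in WT fasted, 1.51 in KO fed and 1.08 in KO fasted mice, and with 3 or 4 mice a group none of these was called by edgeR (adjusted p from 0.162 to 0.599). Of all genes tested, the same tests called 0.0778%, 1.12%, 0.00865% and 1.68%. DESeq2 called Cd36 in WT fasted and KO fed mice (adjusted p = 0.042 and 0.0375), and edgeR called it in KO fed mice when those 2 groups were fitted alone (1.51, adjusted p = 0.00903). By sequencing lane, as the labels give it, the diet effect was 1.56 in lane 7 (16 mice, adjusted p = 0.0533) and 1.17 in lane 8 (14 mice, adjusted p = 0.0757). Fasting went with 0.47 more on the log2 scale (95% interval 0.039 to 0.893), which was not called (adjusted p = 0.129). Macrophage markers, 8 of 8 in the table, summed to 220.9 to 561.7 CPM on LF and 265.9 to 634.6 CPM on HF, and none of the 8 was called for diet. Endothelial markers, 8 of 8 in the table, summed to 408.5 to 616.4 CPM on LF and 380.3 to 496.6 CPM on HF. Adipose markers, 7 of 7 in the table, summed to 8.009 to 237.4 CPM on LF and 11.92 to 96.64 CPM on HF. No tested gene of either list was called for diet. Stellate markers, 7 of 7 in the table, summed to 371.5 to 521.7 CPM on LF and 396.2 to 612.3 CPM on HF, and 1 of the 7, the collagen gene Col3a1, was higher on HF (1.05, adjusted p = 3.25e-04). Heart markers were at most 28.94 CPM on LF and reached 376.6, 230.4 and 116.7 CPM in replicate 1 of KO HF fed and replicates 4 of WT HF fed and WT HF fasted, which had 40.87, 62.94 and 66.27 CPM of Cd36. The Cd36 diet effect was called without each of these mice in turn (1.175 to 1.38 over all single mice). The part of these markers in the Cd36 values was otherwise not tested.

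Slc27a2 encodes FATP2, a fatty acid transporter of liver that also activates very-long-chain fatty acids. In WT mice on LF it was at 360.5, 291.4 and 335.1 CPM fed and at 1005, 666.7, 710.7 and 536.3 CPM fasted. In KO mice on LF the values were 279, 299.7, 267.8 and 264.7 CPM fed and 571.9, 1029, 685.7 and 641.7 CPM fasted. On HF, WT mice had 481.4, 454.6, 376 and 311.5 CPM fed and 861.6, 551.1, 698.7 and 579.5 CPM fasted. KO mice on HF had 460.7, 399.3, 355.3 and 354.6 CPM fed and 660.3, 1109 and 981.3 CPM fasted. The lowest fasted mouse of all lay above the highest fed mouse, a separation that 0.294% of the genes tested showed. Without TMM the 2 mice were closer, at 508 and 499.9 CPM.

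Fasting raised Slc27a2 by 1.13 ± 0.10 on the log2 scale, or 2.18-fold (adjusted p = 7.68e-11), and the effect was alike in size within lane 7 (1.17, adjusted p = 2.65e-04) and lane 8 (1.11, adjusted p = 9.51e-08). It was called in WT LF (1.15), KO LF (1.40) and KO HF mice (1.22), and was 0.73 in WT HF mice (adjusted p = 0.0745). The WT HF effect was called by DESeq2, and by edgeR without any 1 of replicates 1 and 2 of KO LF fasted and replicate 2 of WT HF fasted (0.73, 0.73 and 0.81). In the order of group means, KO HF fasted mice came first at 917 CPM and KO LF fed mice last at 277.8 CPM, and the only neighbours that did not overlap were WT HF fasted and WT HF fed mice. The diet effect was 0.25 (95% interval 0.0496 to 0.455) and was not called (adjusted p = 0.18).

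Slc27a4 encodes FATP4, a transporter and acyl-CoA synthetase of the same family. Its counts were low, from 41 to 204 reads a mouse, and its averaged fasting effect was 0.19 (95% interval -0.0777 to 0.453, adjusted p = 0.372). On LF it was at 25.48 to 32.21 CPM in WT fed and 32.41 to 51.63 CPM in WT fasted mice, and at 17.28 to 37.16 CPM in KO fed and 27.3 to 71.48 CPM in KO fasted mice. On HF the fasted mice were not higher, with 19.56 to 37.37 CPM in WT and 21.93 to 27.38 CPM in KO, against 27.38 to 38.14 and 20.2 to 36.68 CPM fed. The fasting effect was called in KO LF mice (0.77, adjusted p = 0.0357) but not without replicate 1 of KO LF fasted, the mouse at 71.48 CPM (0.42, adjusted p = 0.296), nor without any 1 of replicates 2, 3 and 4 of KO LF fed (0.63, 0.77 and 0.69). The difference of the fasting effect between HF and LF was -0.90 (95% interval -1.43 to -0.364) with an adjusted p of 0.0583, just outside the threshold, and DESeq2 called it (adjusted p = 0.0359). It was also called without any 1 of replicate 2 of KO LF fasted, replicate 1 of KO LF fed, replicate 4 of KO HF fed and replicate 4 of WT HF fasted (-0.99, -1.02, -0.97 and -1.003).

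Fabp1 encodes the abundant fatty acid-binding protein of hepatocytes, and Fabp2 the intestinal form. Fabp1 was at 1451 to 5756 CPM and Fabp2 at 79.06 to 349.7 CPM, while intestinal markers (4 of 8 in the table, among them Sis) summed to at most 1.129 CPM. Fabp1 on LF ranged from 3648 to 4446 CPM in WT fed, 1797 to 4562 in WT fasted, 2888 to 3598 in KO fed and 1637 to 4514 CPM in KO fasted mice. On HF it ranged from 1451 to 5134 CPM in WT fed, 4202 to 4714 in WT fasted, 4206 to 4275 in KO fed and 2224 to 5756 CPM in KO fasted mice. Fabp2 on LF ranged from 139.5 to 177.4 CPM in WT fed, 157.9 to 308.8 in WT fasted, 131 to 149.9 in KO fed and 107.1 to 349.7 CPM in KO fasted mice. On HF it ranged from 79.06 to 325.1 CPM in WT fed, 219.3 to 332.5 in WT fasted, 208.1 to 255.9 in KO fed and 159.1 to 284 CPM in KO fasted mice.

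The spread within groups was uneven, for Fabp1 from 4206 to 4275 CPM in KO HF fed mice to 1451 to 5134 CPM in WT HF fed mice. The fasting effect was -0.08 for Fabp1 (95% interval -0.433 to 0.268, adjusted p = 0.804) and 0.40 for Fabp2 (0.0691 to 0.74, adjusted p = 0.0884), and the latter was called by DESeq2 (adjusted p = 0.0435) and by edgeR without replicate 3 of KO LF fasted (0.46, adjusted p = 0.0196) or replicate 3 of WT HF fed (0.46, adjusted p = 0.0469). In KO LF mice alone the Fabp2 effect was not called, and it was called without replicate 3 of KO LF fasted (1.01, adjusted p = 0.0167) or replicate 2 of WT HF fed (0.77, adjusted p = 0.024). HF went with 0.40 more Fabp1 (0.0536 to 0.754, adjusted p = 0.229) and 0.44 more Fabp2 (0.109 to 0.78, adjusted p = 0.151). Without replicate 2 of WT HF fed, the mouse with the lowest value of both genes, both diet effects were called, at 0.47 for Fabp1 (adjusted p = 0.0479) and 0.52 for Fabp2 (adjusted p = 0.0132). The mouse lowest in Fabp1 was also the lowest in Fabp2 in 7 of the 8 groups, and the highest was the same mouse in 5. Other pairs came close: Fabp1 and Acsl1 shared the lowest mouse in 6 groups, and Cd36 and Fabp2 the highest in 6. Replicate 2 of WT HF fed was also lowest of its group in Acsl1, Acsl3, Acsl4 and Acsl5, and not in Cd36, Slc27a2 and Slc27a4. How often pairs of all genes share such mice was not counted.

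**Figure D2:**
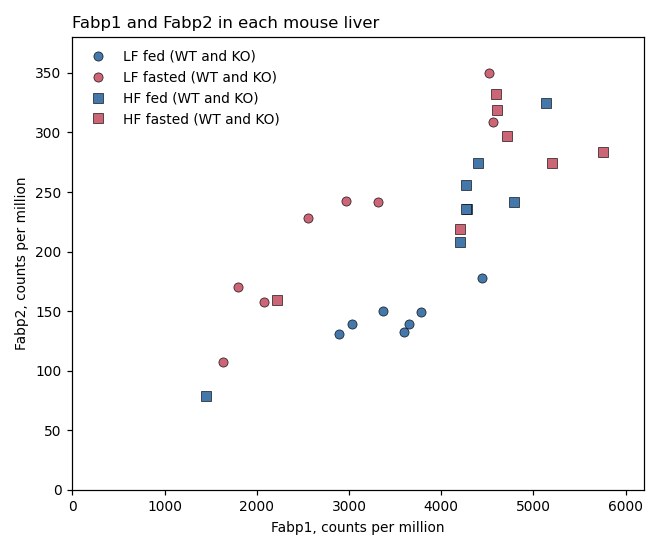
CPM of Fabp1 (horizontal) against Fabp2 (vertical) in each of the 30 mice, circles for LF and squares for HF, blue for fed and red for fasted, WT and KO together. Mice low in Fabp1 are mostly low in Fabp2, down to replicate 2 of WT HF fed at 1451 and 79.06 CPM, and LF fed mice lie lowest in Fabp2 for their Fabp1.

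Acsl1 encodes the isoform that makes up much of the acyl-CoA synthetase activity of liver and serves both oxidation and triglyceride synthesis. In WT mice on LF it was at 927.3, 796.7 and 786.3 CPM fed and at 2348, 2422, 2894 and 3222 CPM fasted. KO mice on LF had 544.6, 653, 737.6 and 751 CPM fed and 2925, 3311, 2710 and 3232 CPM fasted. On HF, WT mice had 837.6, 710.1, 909.9 and 1128 CPM fed and 2301, 1147, 2496 and 2450 CPM fasted. KO mice on HF had 1059, 971.6, 984.3 and 1076 CPM fed and 1314, 2580 and 2044 CPM fasted. All fasted mice lay above all fed mice, although replicate 2 of WT HF fasted, the mouse with the high acinar pancreas markers, was at 1147 CPM, close to the highest fed mouse at 1128 CPM. Without TMM these were at 1171 and 1141 CPM.

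Fasting raised Acsl1 by 1.52 ± 0.10 on the log2 scale, or 2.86-fold (adjusted p = 7.65e-14), with 1.65 in lane 7 and 1.52 in lane 8. The effect was called in each genotype and diet, at 1.70 in WT LF, 2.18 in KO LF, 1.23 in WT HF and 0.95 in KO HF mice. It was smaller on HF than on LF, with a difference of -0.85 ± 0.20 (adjusted p = 0.0147), and Acsl1 was the 1 gene of the 9 called for this difference, which 2.46% of all genes tested passed. Within lanes the difference was -1.28 in lane 7 (adjusted p = 0.126) and -0.87 in lane 8 (adjusted p = 0.0403), and with all 32 mice it was -1.07 (adjusted p = 0.171). In the model of all groups, HF minus LF was not called within any genotype and feeding state. It was 0.099 in WT fed (adjusted p = 0.999), -0.375 in WT fasted (adjusted p = 0.435), 0.61 in KO fed (adjusted p = 0.364) and -0.62 in KO fasted mice (adjusted p = 0.131). A fit of the 2 KO fed groups alone called the KO fed difference (0.60, adjusted p = 0.0221). The call in KO HF mice was lost without replicate 2 of KO HF fasted (0.72, adjusted p = 0.342), and also, at 0.93 to 0.98, without any 1 of replicate 3 of KO HF fasted and replicates 2, 3 and 4 of KO HF fed.

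Acsl3 encodes an isoform of the endoplasmic reticulum and lipid droplets. WT mice on LF had 31.97, 113.3 and 97.72 CPM fed and 27.94, 22.46, 25.01 and 31.38 CPM fasted, and KO mice had 82.65, 56.06, 73.83 and 105.1 CPM fed and 17.65, 15.19, 27.43 and 40.67 CPM fasted. On HF the WT mice had 57.55, 51.61, 83.13 and 64.72 CPM fed and 19.27, 51.91, 17.92 and 31.59 CPM fasted. The KO mice on HF had 33.53, 40.73, 37.24 and 46.48 CPM fed and 38.33, 22.81 and 27.61 CPM fasted. Fed and fasted mice did not overlap on LF in either genotype, in WT only narrowly (31.97 CPM fed against 31.38 CPM fasted). On HF they overlapped in both, in WT also only narrowly (51.61 CPM fed against 51.91 CPM fasted). The WT HF overlap came from the fasted mouse with the pancreas markers, and the others of its group were at 17.92 to 31.59 CPM. Without TMM the WT HF mice did not overlap, at 53.79 CPM for the lowest fed and 53 CPM for the highest fasted mouse.

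Fasting lowered Acsl3 to 0.437 times the fed level (log2 -1.196 ± 0.18, adjusted p = 1.24e-05), with -1.24 in lane 7 and -1.16 in lane 8, both called. By group it was called in WT LF (-1.59) and KO LF mice (-1.67) and not in WT HF (-1.11, adjusted p = 0.173) or KO HF mice (-0.42, adjusted p = 0.924). Without replicate 2 of WT HF fasted, the highest Acsl3 value of that group and the mouse with the pancreas markers, the WT HF effect was -1.51 and was called (adjusted p = 0.0189). The WT LF call was lost without replicate 3 of WT LF fed (-1.27, adjusted p = 0.0578). The difference between diets was 0.86 (95% interval 0.134 to 1.59) and was not called (adjusted p = 0.255).

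Acsl4 encodes the isoform that prefers arachidonic acid. It was highest in WT LF fed mice, at 197.8, 212.6 and 226.4 CPM, which did not overlap with the next group, and lowest in WT HF fasted mice, at 64.41, 98.93, 91.01 and 80.14 CPM. KO LF fed mice had 113.7, 98.64, 179.2 and 161.8 CPM, and the other 5 groups ranged from 69 to 197.4 CPM. Fasting lowered Acsl4 by a log2 change of -0.46 ± 0.12 (adjusted p = 0.00491), and HF went with a log2 change of -0.41 ± 0.12 (adjusted p = 0.0492). The diet call was lost in 30 of 40 other settings, among them limma voom, the fits with lane or age as a term, and 23 of the 30 fits that each leave out 1 mouse (-0.46 to -0.35 over those 30). All WT LF fed mice used were in lane 8. Within lanes the fasting effect was -0.15 in lane 7 (adjusted p = 0.716) and -0.57 in lane 8 (adjusted p = 0.0223), and the diet effect was -0.22 and -0.39, neither of them called. In WT fasted mice the diet effect on Acsl4 was -0.80 and not called by edgeR (adjusted p = 0.0796), and it was called by DESeq2 (-0.81, adjusted p = 0.04) and by edgeR without replicate 3 of WT LF fasted (-1.03, adjusted p = 0.00308) or replicate 1 of KO LF fasted (-0.80, adjusted p = 0.0484). Fits of 2 groups alone called the diet effect in WT fed mice (-0.66, adjusted p = 0.0312) and the fasting effect in WT HF mice (-0.69, adjusted p = 0.0353), which the model of all groups did not.

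Acsl5 encodes an isoform of mitochondria and the endoplasmic reticulum. It was at 477.1 to 647.9 CPM in WT LF fed and 284.5 to 449.8 CPM in WT LF fasted mice, which did not overlap, and at 359.6 to 513.7 and 280.6 to 599.2 CPM in KO LF fed and fasted mice, which did. On HF it was at 187.4 to 583.7 CPM in WT fed, 294.2 to 344.9 in WT fasted, 374.1 to 489 in KO fed and 281.2 to 381.6 CPM in KO fasted mice. Fasting lowered it by a log2 change of -0.43 ± 0.12 (adjusted p = 0.00892), which the edgeR model of all groups called in no single genotype and diet. The effect was -0.75 in WT LF mice (adjusted p = 0.0611), where it was called by DESeq2 (adjusted p = 0.0439), by a fit of those 2 groups alone (adjusted p = 0.00468) and with replicate 2 of WT LF fed added (-0.73, adjusted p = 0.04). That WT LF effect was also called without any 1 of replicates 1 and 3 of KO LF fasted, replicates 2 and 3 of WT HF fed and replicate 3 of WT LF fasted (-0.91 to -0.75). Over genotypes and diets together, the change was -0.16 in lane 7 (adjusted p = 0.73), which held no WT LF fed mice. It was -0.56 in lane 8 (adjusted p = 5.38e-04), and with all 32 mice it was -0.53 and not called (adjusted p = 0.126). Among all pairs of the 9 genes, Acsl4 and Acsl5 had the most alike group means, with a root mean square difference of 0.198 log2 between their centred values over the 8 groups. Such a difference tends to be small for genes that vary little, and the group means of Acsl5 spanned 0.849 log2.

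**Figure D3:**
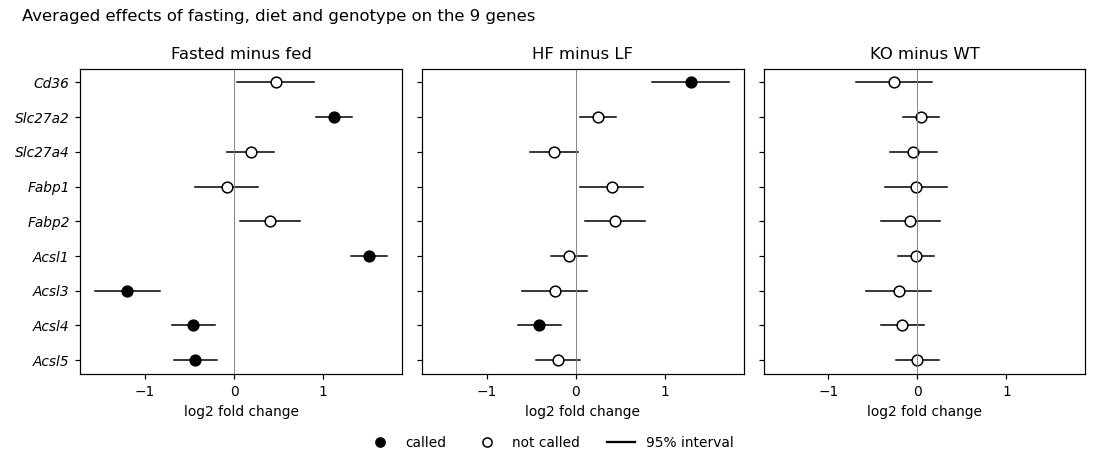
Averaged effects of fasting, diet and genotype on each of the 9 genes (log2 fold change on the horizontal axis, line for the 95% interval). Filled points mark calls, which are Slc27a2, Acsl1, Acsl3, Acsl4 and Acsl5 for fasting and Cd36 and Acsl4 for diet, and no point is filled for genotype.

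By genotype, the question of whether loss of MCAD changes fatty acid entry at the transcript level, none of the 9 genes was called. The averaged KO to WT differences ran from -0.26 for Cd36 (95% interval -0.688 to 0.166) to 0.04 for Slc27a2 (-0.162 to 0.242), and 0 of the 9 had an unadjusted p below 0.05, against 2.9% of all genes. DESeq2 and limma voom also called 0, and of all genes tested 0.00865% were called, which is 1 gene, Acadm itself. The intervals were narrowest for Slc27a2 and Acsl1 (-0.215 to 0.19) and widest for Cd36. At matched diet and feeding state edgeR called 0 genes as well, and unadjusted p-values below 0.05 were found for Acsl4 in LF fed (-0.62), Acsl3 in HF fed (-0.70) and Slc27a2 in HF fasted mice (0.45). Of all genes, 3.89%, 2.73% and 2.49% had such a p in those tests, and in LF fasted mice, where no member had, 5.91%. No difference of the fasting effect or of the diet effect between genotypes was called in the 9 genes or in any gene tested (0%). Acsl4 had the 1 unadjusted p below 0.05 among these, 0.0106 for the diet effect, which was 0.64 higher in KO than in WT (95% interval 0.16 to 1.13), against 3.43% of all genes for the diet effect and 4.95% for the fasting effect. DESeq2 and limma voom called none of these either.

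**Figure D4:**
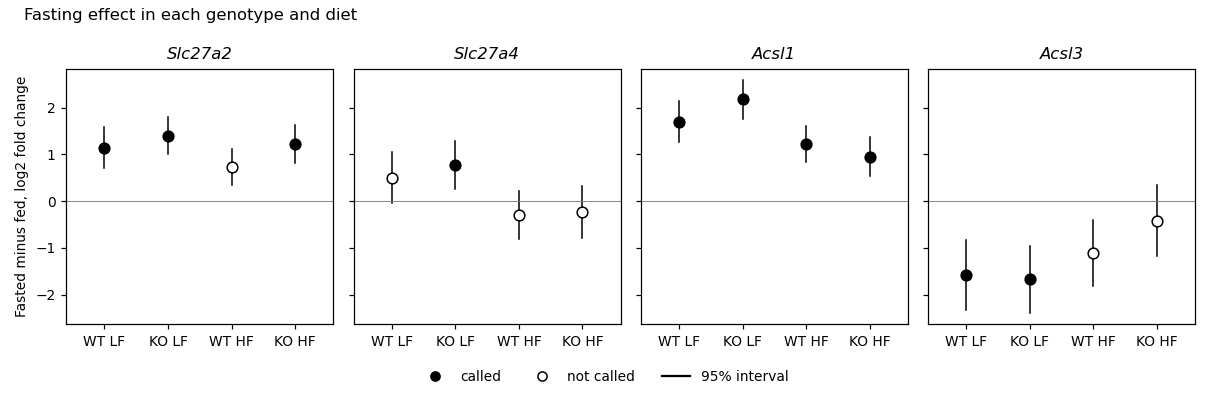
Fasting effect (log2 fold change, fasted minus fed, with the 95% interval) on Slc27a2, Slc27a4, Acsl1 and Acsl3 in WT LF, KO LF, WT HF and KO HF mice, filled where called. Acsl1 falls from 1.70 and 2.18 on LF to 1.23 and 0.95 on HF, Slc27a4 is above 0 on LF and below 0 on HF, and Acsl3 is closest to 0 in KO HF mice.

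In the single genotype and diet groups, 3 of the 9 genes were called for fasting in WT LF, 4 in KO LF, 1 in WT HF and 2 in KO HF mice. Of all genes tested the same tests called 7.54%, 13.8%, 0.424% and 0.527%. Acsl1 was the only member called in all 4 of them. For diet, averaged over the other factors, 2 of the 9 genes were called, Cd36 upward and Acsl4 downward, while 3.49% of all genes were called, 2.26% upward and 1.24% downward.

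Other genes of fatty acid handling were read from named lists, beside 9.77% of all genes tested called upward and 9.14% called downward with fasting. Of the 15 further members of the Acsl, Slc27 and Fabp families, 11 were in the table and 6 were tested, of which 1 rose and 1 fell with fasting. The riser was Slc27a1, a transporter known mainly from muscle and fat (2.45, adjusted p = 4.39e-05, from a mean of 0.651 to 3.83 CPM), and Fabp5, a binding protein of epidermis and macrophages, fell (-2.58, adjusted p = 1.15e-05, from 13.5 to 1.71 CPM). The median of the 6 was 0.141, beside -0.00219 for all genes.

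Among 8 tested genes that bind or transfer acyl-CoA and lipids, 3 rose and 1 fell, with a median of 0.126. Pctp, a phosphatidylcholine transfer protein, rose by 1.17 (adjusted p = 3.30e-06), Hsd17b4, a peroxisomal enzyme with a sterol carrier domain, by 0.83 (adjusted p = 6.08e-06), and Acbd5, an acyl-CoA binding protein of peroxisomes, by 0.40 (adjusted p = 0.0017). Dbi, the acyl-CoA binding protein of the cytosol, fell (-0.57, adjusted p = 1.64e-04). Among 12 genes of fatty acid delivery, 2 rose and 3 fell, with a median of 0.0561. Mfsd2a, a carrier of lysophosphatidylcholine, rose by 2.31 (adjusted p = 7.25e-07) and Angptl4, an inhibitor of lipoprotein lipase, by 2.16 (adjusted p = 4.74e-09). Angptl8, an insulin-responsive regulator of lipoprotein lipase, fell (-1.79, adjusted p = 2.42e-05), as did Lmf1, a lipase maturation factor (-0.54, adjusted p = 0.0135), and Lipc, the hepatic lipase (-0.36, adjusted p = 0.0148).

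The thioesterases, which undo activation by splitting acyl-CoA into fatty acid and coenzyme A, rose in 6 of 12 tested genes and fell in none, with a median of 0.745. Of all genes tested, 9.77% rose and 9.14% fell. By size of p the leading genes were Acot12 (1.16, adjusted p = 2.10e-12), Acot1 (3.655, adjusted p = 4.44e-10, from 41.9 to 586 CPM), Acot3 (3.68, adjusted p = 6.51e-08) and Acot4 (1.56, adjusted p = 2.27e-07). Acot1 to Acot6 lie in families of close copies, so that their counts are uncertain. The fasting effect on Acot1, Acot3 and Acot12 was smaller on HF than on LF, with differences of -2.16, -3.10 and -0.999 on the log2 scale (adjusted p = 0.0178, 0.0386 and 0.00109). The same difference was called in Fabp5 (2.97, adjusted p = 0.0474), Mfsd2a (-2.87, adjusted p = 0.00428), Angptl8 (2.59, adjusted p = 0.00998) and Angptl4 (-1.42, adjusted p = 0.0384), each again with a smaller fasting effect on HF. Of all genes tested, 2.46% were called for this difference. By edgeR, no gene of these 4 lists was called for the diet or genotype effect averaged over the other factors. Within single groups, the 1 diet or genotype call by edgeR was Acot12, lower on HF than on LF in KO fasted mice. That test called 1.68% of all genes. DESeq2 called 2 thioesterases there and limma voom 4, Acot12 among them. For the averaged diet effect, 1 family member, 1 delivery gene and 2 thioesterases had an unadjusted p below 0.05, as did 15.8% of all genes, and DESeq2 called Acot13 (0.40, adjusted p = 0.0579 by edgeR). For the averaged genotype effect no gene of the lists had an unadjusted p below 0.05 by edgeR, and neither DESeq2 nor limma voom called any. At matched diet and feeding state edgeR had 1 delivery gene at such a p, in LF fed mice. The paper reported higher Acot2 in KO than in WT LF fasted mice, by sequencing and by real-time PCR. For the sequencing result it gave a p-value that it did not describe as adjusted, whereas calls here rest on adjusted p-values. Between KO and WT LF fasted mice no tool called a thioesterase. At an unadjusted p below 0.05, edgeR and DESeq2 had 0 of the 12 tested and limma voom had 2. The Acot2 difference itself is not given here, so its size was not compared with that in the paper.

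By their group means, the genes closest to Acsl1 over the 8 groups were Rhbdd2, Aifm2 and Acot4, with root mean square differences of 0.102, 0.118 and 0.126 log2. Those closest to Slc27a2 were Gm4952 (0.107), Gm9001 (0.143) and Cyp2b10 (0.145), and those closest to Cd36 were Cyp2a5 (0.17), Aatk (0.259) and Nt5e (0.278). Cyp2a5 has a near-identical copy, so that its counts are uncertain. Those closest to Fabp2 were Gdf10 (0.101), Rtn4ip1 (0.115) and Wwtr1 (0.116), those closest to Acsl3 were Ralgps1 (0.181), Tubb5 (0.204) and Utp14b (0.207), and those closest to Acsl4 were Swi5 (0.136), Ctnnbip1 (0.14) and Sephs2 (0.143), while Slc27a4, Fabp1 and Acsl5 varied by less than 1 log2 over the groups and were not compared.

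Adipose markers, 7 of 7 in the table, summed to 26.33 to 237.4 CPM in fasted and 8.01 to 69.51 CPM in fed mice. Cidec, also a lipid droplet gene of hepatocytes, was the 1 gene of that list called (4.73, adjusted p = 6.73e-07), while Adipoq averaged 1.09 CPM and Lep 0.0116 CPM. Hepatocyte markers, 10 of 10 in the table, summed to 52410 to 70300 CPM fed and 55180 to 84610 CPM fasted. Of these 10, 3 were called higher and 2 lower with fasting, and 1 was called higher on HF. Of the 8 endothelial markers, 1 was called higher with fasting. Without the 4 mice with pancreas or adrenal RNA, a fit added after the data had been seen, 6 of the 9 genes were called for fasting, the same 5 and Fabp2 (0.52, adjusted p = 0.0216), and 1 for diet, Cd36.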

How the data were processed

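Raw liver RNA counts of 32 mice were used, as deposited by the authors: whole-number read counts per Ensembl gene, with no normalization. According to the methods and the submitters' processing notes, the authors prepared 3′ libraries, mapped reads to GRCm38 with HISAT 0.1.5, handled alignments with SAMtools 1.2 and counted with HTSeq 0.6.1p1 in union mode. Symbols (for 19913 of 20076 genes) and positions came from GENCODE vM21, and promoters from RefSeq (GRCm38.p6).

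CPM are counts per 1000000 of the TMM-scaled library size of the tested genes, 0.917 to 1.01 times the values over total counts in fed and 0.952 to 1.13 times in fasted mice used. The 2 mice left out took their factors from a normalization of all 32. A count of 3 corresponded to 0.698 to 1.58 CPM, and such floors cover counting error only. All tests came from edgeR 4.0.16 in R 4.3.3: TMM normalization, filterByExpr, and 1 robust quasi-likelihood model of the 8 groups with 30 mice, tested on simulated data before use. Standard errors are the log2 fold change divided by the square root of F, and intervals are 95% from the t distribution of the fit. DESeq2 1.42.0 and limma 3.58.1 voom were alternatives, with RLE normalization, no filter, lane or age as a term, a replicate block, other choices of mice and 2-group fits. The fits within lanes had genotype as an additive term, and lane 7 held no WT LF fed mice, so that the lanes did not hold the same groups. Mice of 1 group differed by more than sampling noise (chi-square per gene of at least 3.93 in 42 pairs), and nothing says more than that they are separate animals. The labels put 16 libraries on each of 2 lanes, where the methods describe pools of 8.

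The members, lists and comparisons were chosen with earlier results of these data known. Named were the 9 genes and Acadm, at most 4 genes a list by p among those called for fasting, those called for diet or genotype, and the 3 genes closest to each member that varied by at least 1 log2 over the groups. Lmf1, Lipc and Acot13 were named to account for small counts, after their values had been seen, and Acot2 because the paper reported it. Likeness used group means of log2 CPM with a prior count of 2.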

Additional observations from a re-analysis of the deposited data

Results flagged for a closer look

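Acsl1 had a fasting effect that differed between diets by test, with an interaction of -0.85 on the log2 scale, smaller on HF. In the groups with 4 mice, 54 combinations of a gene and a group were tested for a mouse far from the others, and 2 stood out, where chance gives about 5%. In both, the gap to the nearest mouse was 0.855 of the range of the group, above Dixon's 95% critical value. In CPM without TMM the gaps were 0.804 for Acsl1 and 0.751 for Fabp1, below that value. Replicate 2 of WT HF fasted was at 1147 CPM of Acsl1, against 2301 to 2496 CPM in the other mice of its group. It is the mouse with 17880 CPM of acinar pancreas markers, whose part in its Acsl1 value was not tested. Without it the interaction was -0.75, still called (adjusted p = 0.0186). Replicate 4 of KO HF fed was at 4206 CPM of Fabp1, against 4265 to 4275 CPM in the others.

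The mice left out went above the range of the mice used in 1 gene each. Replicate 4 of KO HF fasted, the library with heart markers, had 1061 CPM of Cd36, against 10.99 to 103.5 CPM in the 30 mice, and it was below all of them in 7 of the 9 genes, such as Slc27a2 (9.60 CPM) and Fabp1 (64 CPM). Replicate 2 of WT LF fed had 348.2 CPM of Acsl4, against 64.41 to 226.4 CPM, and was below all of them in Slc27a2 (182.3 CPM) and Acsl1 (387.9 CPM).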

How the results depend on the processing

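Counts of the 9 genes called kept their value within 1.5 times for fasting (4 to 6 genes in all settings, 5 in the report), and no gene was called for genotype or its interactions in any setting. For diet the count was 2 and became 1 with all 32 mice, limma voom, no filter, lane, age or the replicate block as a term, and without the 4 mice with pancreas or adrenal RNA, an alternative chosen after seeing the data, always through loss of Acsl4. Leaving out 1 mouse at a time gave 1 to 3 genes. For the difference of the fasting effect between diets the count was 1, and it was 0 with all 32 mice, 2 with DESeq2, no filter or the replicate block, through Slc27a4, and 1 to 2 when leaving out 1 mouse at a time. The replicate block changed no other call of the averaged effects. Same-numbered mice of different groups did not deviate together: over 98 pairs the residual correlation ran from -0.204 to 0.168 and was above 0.1 in 2, so that the numbers were not read as pairs. Cd36 was called for diet in all 40 settings (1.101 to 1.67), and Slc27a2, Acsl1, Acsl3 and Acsl4 for fasting. With all 32 mice, the averaged fasting call of Acsl5 and 6 single-group fasting calls were lost, of Slc27a2 in WT LF, KO LF and KO HF, of Acsl1 in WT HF and KO HF and of Slc27a4 in KO LF. The cause of these losses was not tested. Fits of 2 groups alone called 9 single-group effects that the model of all groups did not, among them Fabp2 (0.75) and Acsl3 (-1.02) for diet in KO fed mice and Cd36 for fasting in KO LF mice (0.95), and lost that of Slc27a4 in KO LF mice.

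Genotype effects, none of them called, changed sign with small sizes. With all 32 mice Cd36 was at 0.114, Slc27a2 at -0.020 and Acsl5 at -0.093. With replicate 2 of WT LF fed added, Fabp1 was at 0.041 and Acsl1 at 0.040. With lane as a term, Fabp1 was at 0.030 and Acsl1 at 0.044, and with age as a term Fabp1 was at 0.0078 and Acsl5 at -0.017. Fabp1 was at 0.000752 with limma voom and at 0.044 without the 4 mice, Acsl1 at 0.016 with the replicate block and Acsl5 at -0.00214 with no filter. Leaving out 1 mouse at a time gave -0.012 to 0.089 for Slc27a2, -0.13 to 0.010 for Slc27a4, -0.083 to 0.075 for Fabp1, -0.072 to 0.043 for Acsl1 and -0.061 to 0.046 for Acsl5. With 3 or 4 mice a group, small genotype differences could be missed. The intervals given are not limits of detection, which were not computed. Cd36, Slc27a4 and Acsl3 rested on the fewest reads, 32 to 376 a mouse.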
